A study of Mus musculus with 93 samples.

Results

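The livers of 15 male CAST/EiJ mice were compared here by diet, 8 on the western diet (WD) and 7 on the control diet (CD), out of 93 mice of 7 strains in the whole series. The mice were chosen by their strain label alone, and no measured value took part in the choice. CAST/EiJ is a wild-derived inbred strain of the subspecies castaneus, and its genes differ at many positions from those of C57BL/6J, the strain whose genome the reads were mapped to. No mouse carried a transgene or an engineered allele. Each mouse was moved to 30°C, which is thermoneutral for mice, at 6 weeks of age, was given its diet from 7 weeks of age for 17 weeks, and was killed at 24 weeks of age after a fast of 4 h. The WD took 40% of its energy from fat, 17% from protein and 43% from carbohydrate, and the CD 10%, 17% and 73%. The other 78 mice, of the strains A/J, C57BL/6J, DBA/2J, PWK/PhJ, WSB/EiJ and 129S1/SvImJ, had the same age, sex, housing and diets.

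The liver makes cholesterol from acetyl-CoA by the mevalonate pathway, takes it up from blood lipoproteins, and disposes of it as bile acids or by pumping it into bile. When sterols are scarce in the endoplasmic reticulum, the transcription factor SREBP2 is cut free from the membrane and switches on the genes of synthesis and uptake. When sterols are plentiful, INSIG proteins hold SREBP2 back, and oxysterols activate the liver X receptors (LXR), which switch on genes of efflux. Fatty acids have receptors of their own, above all PPARα, which drives their oxidation during a fast.

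RNA-seq read counts per gene were analysed for every mouse, with 40797718 to 44583685 reads on genes, and levels are given as CPM (read counts divided by library size) scaled with TMM factors. CPM is not corrected for gene length, so levels are compared between mice. The mice came from 3 cohorts, with 3 WD mice and 1 CD mouse in cohort 1, 2 and 2 in cohort 3, and 3 and 4 in cohort 4, and cohort was a term of the fit. Hepatocyte markers were plentiful in every library (a summed level of at least 79840 CPM). Alb was a large part of the sum, at 43930 to 65050 CPM on WD and 78870 to 94660 CPM on CD. The summed level of these markers was lower on WD without overlap. It was 79840, 85670 and 101600 CPM (lowest, median and highest) against 113700, 127800 and 136700 CPM on CD. Of the 10 markers summed, Alb alone was downregulated at a limma adjusted p below 0.05, and 9 did not pass. The log2 fold change was positive for 3 of the 10, with a median of −0.17. The Y-linked gene Ddx3y had 2833 to 4568 counts in each of the 15 mice and Xist 65 to 136, as in male mice.

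A group of 4 CD mice stood apart from the other 11 mice. On the first principal component, which held 32.0% of the variance, CD replicate 3 of cohort 3 and CD replicates 5, 6 and 7 of cohort 4 lay between 64.4 and 146, and the other mice between −64.9 and −19.4. These 4 mice were labelled like the other CD mice and stayed in the comparison, and each result below was computed again without them, a choice made after their values were seen. Pancreatic genes were high in 3 livers, WD replicate 7 (Ctrb1 273 CPM), WD replicate 6 (72.6 CPM) and CD replicate 6 (29.4 CPM), against at most 5.01 CPM in the others. WD replicate 3 had 73.1 CPM of the collagen gene Col1a1, against at most 7.55 CPM in the others. Reads that mapped nowhere made up 13.3% ± 1.01 (SD, n = 8) of the reads on WD and 10.8% ± 1.66 (SD, n = 7) on CD (two-sided exact permutation test, p = 0.00559, adjusted over 4 measures p = 0.0112), and reads on genes were fewer on WD, 41198000 against 42734000 on average (exact permutation test, p = 0.00155, adjusted p = 0.00622). The part of these differences in the results below was not tested, and the permutation tests took no account of cohort. In whole liver, fewer cells of a type and less RNA per cell cannot be told apart.

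At an adjusted p below 0.05 by limma-voom, 1371 of 15378 genes tested were differentially expressed genes (DEGs), which is 8.92%. WD upregulated 730 genes (4.75%) and downregulated 641 (4.17%), and the median log2 fold change over all genes tested was 0.01. These shares are the reference for the counts of gene lists below, several of which lay near them. The change was over 2-fold for 136 upregulated and 99 downregulated genes. In 173 upregulated and 226 downregulated genes, no WD mouse overlapped with a CD mouse, and over all genes tested 415 (2.7%) were without overlap. Without the 4 CD mice apart, 320 of 16074 genes were DEGs (1.99%), 106 upregulated and 214 downregulated. All 1371 DEGs had the same direction without those mice, 252 of them at no more than 50% of the size, and 246 were still DEGs, 83 upregulated and 163 downregulated. Leaving out single mice moved the count between 622, without WD replicate 7, and 2723, without CD replicate 4.

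Genes of cholesterol synthesis fell almost throughout the pathway. Of the 20 enzyme genes of the list, 18 were downregulated on WD and none upregulated, with a median log2 fold change of −1.48, and 13 had all WD mice below all CD mice. The same number, 18 of 20, was downregulated without the 4 CD mice apart, with a median of −1.42. Leaving out single mice gave 16 to 18. The sterol regulatory element (SRE) is the DNA element that SREBP2 binds. A core of this element, written TCACNCCAC, was searched on both strands of promoter windows of the RefSeq annotation of GRCm38.p6, each running from 250 bases before a gene's start to 50 bases after it. In the cholesterol synthesis list 1 of 15 genes with a window held it, and in the list of sterol uptake and SREBP2 control 1 of 11, against 388 of 27025 genes overall (1.44%). The stretches around both matches are shown because they hold the element named here, with the match in capitals.
Hmgcs1, chr13:119690194-119690242, plus strand: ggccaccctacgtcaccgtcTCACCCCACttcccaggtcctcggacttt
Stard3, chr11:98358137-98358185, plus strand: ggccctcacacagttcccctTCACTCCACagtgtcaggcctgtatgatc
The match began 137 bases before the start of Hmgcs1, which fell on WD, and 211 bases before the start of Stard3, a sterol carrier of late endosomes whose log2 fold change was −0.05 (limma adjusted p = 0.626). These letters were absent from the other 14 windowed synthesis genes, which says only that this exact form was not in those windows.

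The largest decrease of the genes named by the rule on abundance and overlap was that of Sqle (chr15:59315077-59331192, positions here and below on GRCm38), squalene epoxidase, a rate-limiting enzyme of the second part of the pathway. The lowest, median and highest levels were 39.6, 43.0 and 75.8 CPM on CD and 3.78, 4.64 and 5.47 CPM on WD, and other levels below are given in the same order. The groups lay far apart, with a fitted 10.5-fold decrease (log2 fold change −3.39 ± 0.12 SE, limma adjusted p = 5.55e-10). Idi1, isopentenyl diphosphate isomerase (chr13:8885501-8892451), stood at 5.12, 8.75 and 16.8 CPM on CD and 0.603, 0.999 and 1.28 CPM on WD, again without overlap (−3.38 ± 0.27). Cyp51, lanosterol demethylase (chr5:4081145-4104746), stood at 43.2, 52.5 and 73.0 CPM on CD and 5.26, 6.34 and 9.23 CPM on WD (−3.05 ± 0.14). Msmo1, a methylsterol oxidase of the same pathway (chr8:64718139-64733792), stood at 27.6, 41.3 and 56.6 CPM on CD and 4.73, 5.68 and 7.43 CPM on WD (−2.93 ± 0.15). Nsdhl, which removes the carboxyl group of these sterols (chrX:72918557-72958514), stood at 27.9, 42.6 and 64.8 CPM on CD and 6.03, 8.58 and 11.4 CPM on WD (−2.22 ± 0.19). In each of these 5 genes every WD mouse was below every CD mouse, which the rule that named them required, and the log2 fold change of Sqle was −3.28, −3.70 and −3.23 in cohorts 1, 3 and 4.

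**Figure D1:**
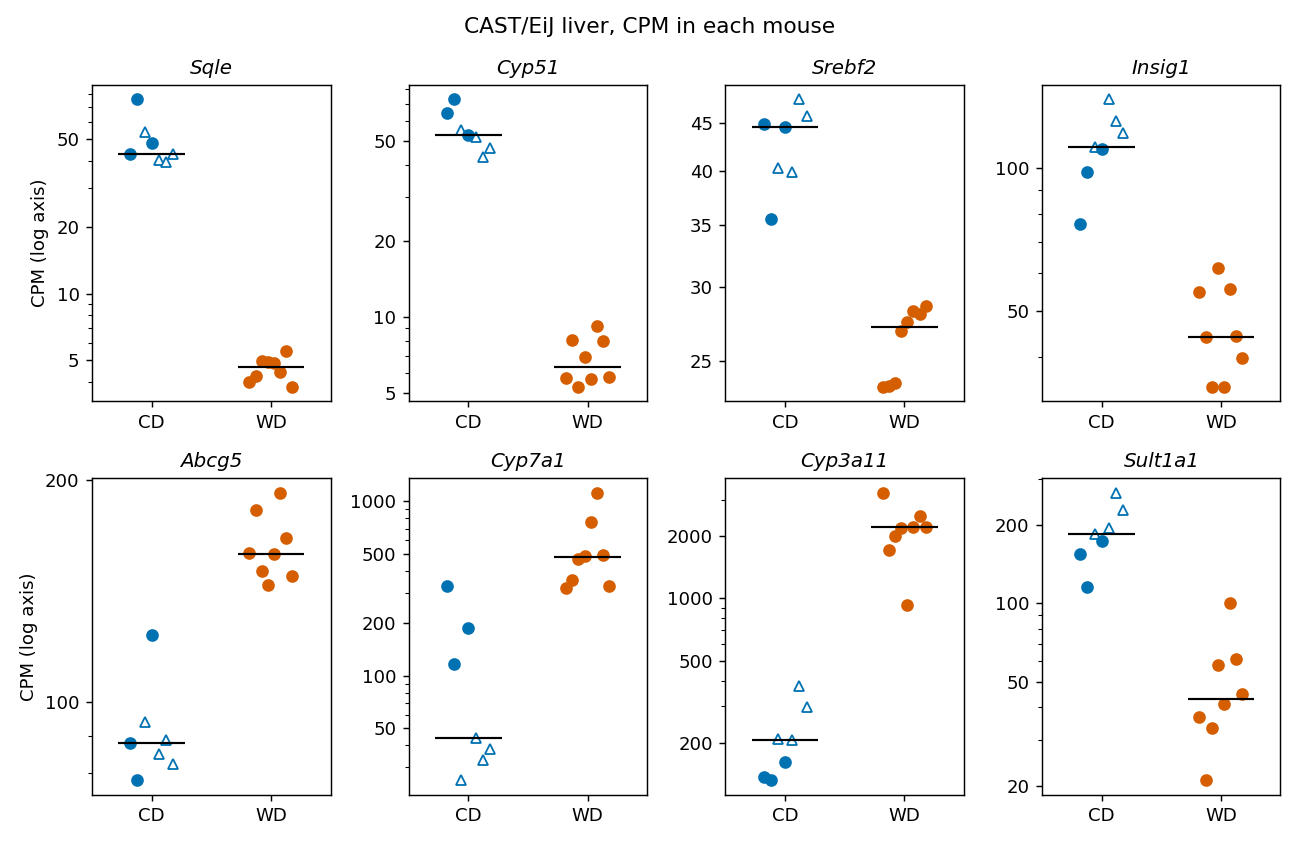
Levels of 6 genes of sterol metabolism and of Cyp3a11 and Sult1a1 in CPM on a log axis for each CAST/EiJ mouse, CD in blue and WD in orange, with a horizontal bar at the median and open triangles for the 4 CD mice that stood apart. Sqle fell from a median of 43.0 CPM on CD to 4.64 CPM on WD with no overlap. The open triangles of Sqle lay between 39.62 and 54.05 CPM, and the other CD mice between 42.99 and 75.77 CPM.

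Other steps were named after their values were seen, to cover more of the pathway. In the first part, from acetyl-CoA to squalene, 7 of 9 genes were downregulated, with a median log2 fold change of −1.16. Pmvk (−2.17 ± 0.15) and Mvd (−1.94 ± 0.15), which phosphorylate and decarboxylate mevalonate products, and Fdps (−1.82 ± 0.33), farnesyl diphosphate synthase, had no overlap between the diets. Fdps was low in counts, at 0.524 to 0.916 CPM on CD and 0.0465 to 0.308 CPM on WD. Hmgcs1, HMG-CoA synthase, fell from a median of 52.5 to 22.7 CPM (−1.16 ± 0.18), with 1 CD mouse at 25.2 CPM inside the WD range. Mvk, mevalonate kinase, fell by less (−0.60 ± 0.17). Fdft1, squalene synthase (−0.43 ± 0.17, limma adjusted p = 0.115), and Acat2, which joins 2 acetyl-CoA (0.02 ± 0.18, limma adjusted p = 0.961), did not pass the test, and without the 4 CD mice apart they stood at −0.84 and −0.43 and passed it.

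In the second part, from squalene to cholesterol, all 11 genes were downregulated, with a median log2 fold change of −1.56, and in 9 of them the diets did not overlap. Dhcr7, which makes cholesterol from 7-dehydrocholesterol, fell from a median of 65.5 to 16.6 CPM (−1.89 ± 0.13). Tm7sf2, a sterol reductase, fell from 94.9 to 30.7 CPM (−1.56 ± 0.11), and Hsd17b7, a ketosteroid reductase, from 132 to 36.6 CPM (−1.40 ± 0.26). The changes of Lss, lanosterol synthase (−0.96 ± 0.11), Sc5d (−0.69 ± 0.13) and Ebp (−0.32 ± 0.05) were smaller. Without the 4 CD mice apart, Hsd17b7 (−0.73, limma adjusted p = 0.0562) and Ebp (−0.25, limma adjusted p = 0.0625) no longer passed the test, and the other 9 did. Exons of Idi1, Cyp51, Hmgcs1, Fdft1 and Lss share bases with a gene on the opposite strand, and those of Fdps and Tm7sf2 with a gene on the same strand, and whether the counting used strand is not given in the sources used here. Among genes named further on, Pltp, Srebf1, Me1, Mlxipl, Csad, Irs2, Gpc1, Acot11, Hsd3b3, Tmed5, Arf4, C1s1, Glul, Gls2, Psmb9, Fn1, Alas2, Tmie, Plin4, Dusp8, Slc16a5 and Ttn also share exon bases with a gene on the opposite strand.

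**Figure D2:**
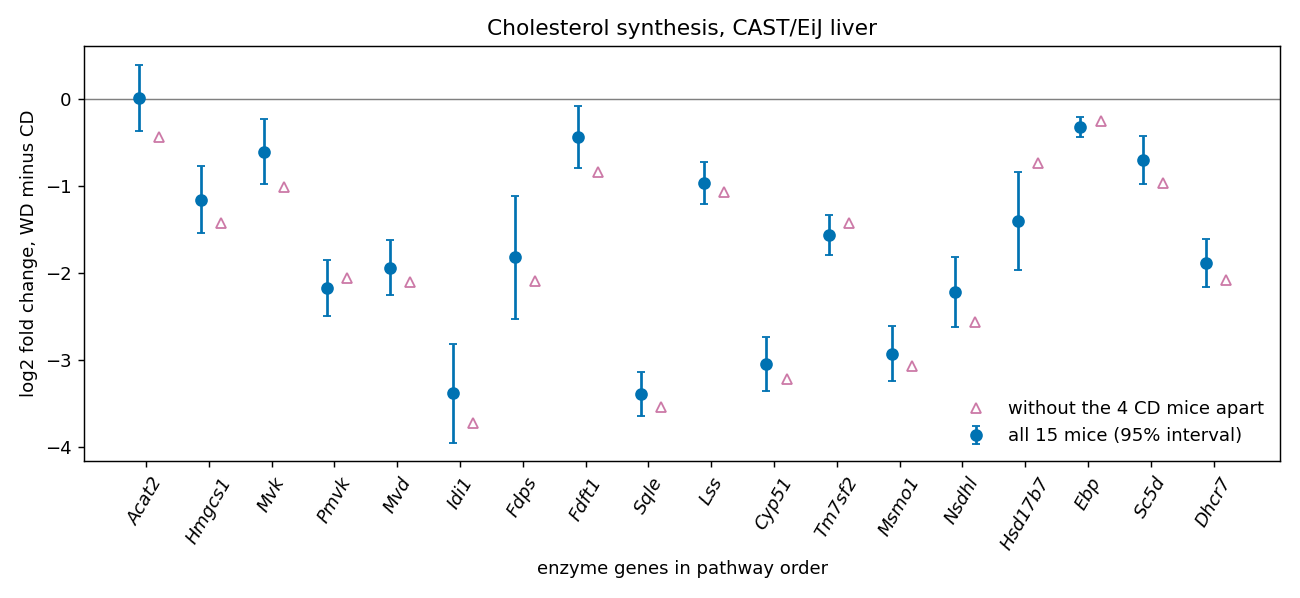
Log2 fold change, WD over CD, of 18 of the 20 cholesterol synthesis genes in pathway order in the fit of all 15 CAST/EiJ mice and in the fit without the 4 CD mice that stood apart, with bars for 95% confidence intervals of the former. Its values run from 0.02 for Acat2 to −3.39 for Sqle, and every downregulated gene in the plot lay under 0 in both fits.

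Genes of sterol uptake and its control were among those that fell. Of 15 tested genes of the list of sterol uptake and SREBP2 control, 7 were downregulated and none upregulated, all 7 without overlap, and 7 were downregulated without the 4 CD mice apart (median log2 fold change −0.32 and −0.35). Srebf2, which encodes SREBP2, stood at 35.5, 44.6 and 47.8 CPM on CD and 23.4, 27.2 and 28.6 CPM on WD (−0.66 ± 0.07). Insig1, which retains SREBP2 and is itself an SREBP2 target, fell from a median of 111 to 44.1 CPM (−1.22 ± 0.14), and Stard4, a cytosolic sterol carrier, from 146 to 73.0 CPM (−0.93 ± 0.12). Npc1l1 was too low in counts to be tested.

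Several genes of sterol efflux rose. Of 14 LXR targets and efflux genes, 6 were upregulated and 1 downregulated, with a median log2 fold change of 0.61, and without the 4 CD mice apart 4 were upregulated and none downregulated. Abcg5 and Abcg8 together form the pump that moves sterols into bile. Abcg5 stood at 78.2, 88.0 and 123 CPM on CD and 144, 159 and 192 CPM on WD (0.85 ± 0.09), and Abcg8 rose from a median of 153 to 239 CPM (0.66 ± 0.12). They lie head to head and share exon bases on opposite strands, so their reads may not be separate. Abcg1, a cholesterol transporter, rose from 6.51 to 11.8 CPM (0.87 ± 0.11), and Pltp, the phospholipid transfer protein, from 13.2 to 22.8 CPM (0.81 ± 0.13). Pltp lost its call without the 4 mice (0.71, limma adjusted p = 0.064). The LXR targets Scd1 (0.84 ± 0.28, limma adjusted p = 0.0743) and Srebf1 (0.74 ± 0.30, limma adjusted p = 0.133) did not pass the test, with medians of 2394 and 308 CPM on CD and 5146 and 409 CPM on WD and an overlap in both.

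Cyp7a1, the rate-limiting enzyme of bile acid synthesis (chr4:6265612-6275633), stood at 25.2, 44.3 and 327 CPM on CD and 319, 479 and 1125 CPM on WD (2.69 ± 0.54, limma adjusted p = 0.00853). 1 CD mouse, at 327 CPM, was above the lowest WD mouse, and the 4 CD mice apart had the lowest levels, 25.2 to 44.3 CPM. The log2 fold change was 0.20 in cohort 1, 3.48 in cohort 3 and 3.32 in cohort 4. Without the 4 CD mice apart it was 1.34 (limma adjusted p = 0.118), so the call depends on those mice. Of 27 bile acid genes, 4 were upregulated and 1 downregulated, and without the 4 mice 1 and 1. Between 3 and 7 were upregulated when single mice were left out, the latter without CD replicate 4. Acox2, which shortens the bile acid side chain (0.46 ± 0.07), Slco1b2, which takes up bile acids (0.45 ± 0.08), and Cyp2c70, which makes muricholic acids (0.66 ± 0.19), rose, and Nr5a2, a nuclear receptor for this pathway, fell (−0.38 ± 0.11). Acox2 alone of these 4 passed the test without the 4 mice (0.42, limma adjusted p = 0.021).

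The genes of fatty acid synthesis did not move as 1 block. Of its 18 genes, 2 were upregulated and 4 downregulated, with a median log2 fold change of −0.21, and without the 4 CD mice apart 1 and 6. Me1, malic enzyme, which supplies NADPH, stood at 48.3, 67.4 and 90.5 CPM on CD and 17.8, 27.2 and 31.4 CPM on WD (−1.40 ± 0.14). Acacb, the acetyl-CoA carboxylase that makes the malonyl-CoA restraining oxidation, stood at 122, 245 and 398 CPM on CD and 66.2, 90.2 and 98.6 CPM on WD (−1.33 ± 0.21). Both were without overlap. Pnpla3, a lipase of lipid droplets, fell from a median of 2.31 to 0.856 CPM (−1.41 ± 0.27). Mlxipl, which encodes the carbohydrate sensor ChREBP, rose from 381 to 687 CPM (0.76 ± 0.13).

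Genes of enzymes that make polyunsaturated fatty acids were among those that fell. Of 11 desaturases and elongases, 6 were downregulated and 1 upregulated, and without the 4 CD mice apart 2 and 1. Fads1, the Δ5 desaturase (chr19:10182888-10196877), stood at 533, 620 and 803 CPM on CD and 204, 233 and 386 CPM on WD (−1.31 ± 0.13, limma adjusted p = 3.57e-05), with no overlap. Fads2, the Δ6 desaturase next to it, fell from a median of 666 to 283 CPM (−1.05 ± 0.18), Elovl5 from 746 to 400 CPM (−0.83 ± 0.20) and Elovl2 from 772 to 553 CPM (−0.53 ± 0.10). Without the 4 mice Fads1 kept its call (−1.26) and Fads2 (−0.75), Elovl5 (−0.52) and Elovl2 (−0.41) did not. Scd2, a stearoyl-CoA desaturase that is low in adult liver, rose from 7.60 to 14.8 CPM (0.97 ± 0.14).

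The largest increase of the genes named by the rule on abundance and overlap was that of Cyp3a11 (chr5:145854426-145879964), a cytochrome P450 that oxidises drugs, steroids and bile acids and is induced through the receptors PXR and CAR. It stood at 132, 207 and 378 CPM on CD and 927, 2207 and 3256 CPM on WD (3.37 ± 0.24, limma adjusted p = 1.68e-06), with no overlap and a log2 fold change of 3.78 without the 4 CD mice apart. Cyp3a16, a close relative, stood at 0.047, 0.131 and 0.474 CPM on CD and 0.791, 1.84 and 2.54 CPM on WD (3.51 ± 0.37), and reads may be shared between these near-identical genes. Of 11 tested genes of the list of xenobiotic receptors and Cyp3a, these 2 were upregulated and Rxra, the partner of those receptors, was downregulated (−0.32 ± 0.06). Of 12 Cyp2b and Cyp2c genes 2 rose and 2 fell, the latter Cyp2c40 (−1.58 ± 0.31) and Cyp2c69 (−1.79 ± 0.51), which overlapped between diets and did not pass the test without the 4 mice (−1.31 and −1.20). Across fits without single mice there were 0 to 4 upregulated and 1 to 2 downregulated members, with none upregulated without CD replicate 1 and 4 without WD replicate 5. Cyp2b10, a classical CAR target, was too low in counts to be tested.

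The genes of conjugating enzymes moved in both directions. Of 38 phase II genes, 9 were upregulated and 5 downregulated, and without the 4 CD mice apart 2 and 4. The upregulated count ran from 4 to 12 without single mice, with 4 without WD replicate 7 and 5 without WD replicate 6. Sult1a1, a sulfotransferase for phenols (chr7:126672865-126676432), stood at 115, 183 and 265 CPM on CD and 21.0, 43.1 and 100 CPM on WD (−1.81 ± 0.20), with no overlap. Ugt2b34, a glucuronosyltransferase (chr5:86889767-86906937), stood at 163, 183 and 264 CPM on CD and 48.6, 66.0 and 117 CPM on WD (−1.38 ± 0.17), with no overlap. Ugt1a5 fell from a median of 8.32 to 1.40 CPM (−2.37 ± 0.24), and its exons overlap those of the other Ugt1a genes, so the reads may not be its own. Ephx1, microsomal epoxide hydrolase, rose from 254 to 450 CPM with no overlap (0.86 ± 0.08), and Gsta1 from 2.10 to 3.37 CPM (0.78 ± 0.19). Of 13 carboxylesterases 4 rose and none fell, Ces2c (1.39 ± 0.23) and Ces2a (0.42 ± 0.10) among them, and none passed the test without the 4 mice (1.08 and 0.46 for these genes). Without WD replicate 7 only 1 was upregulated, and 2 without WD replicate 6 or CD replicate 3. Sult1a1 and Ephx1 share exon bases with other genes, on the opposite strand and the same strand.

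Other large increases were found in genes of varied function. Adam11, an ADAM family gene known from neurons, stood at 3.08, 5.80 and 14.0 CPM on CD and 26.1, 35.0 and 37.8 CPM on WD (2.50 ± 0.22). Gpc1, a heparan sulfate proteoglycan of the cell surface, rose from a median of 13.2 to 61.5 CPM (1.91 ± 0.25), and Acot11, an acyl-CoA thioesterase, from 11.5 to 27.9 CPM (1.51 ± 0.22). Cdcp1, a membrane glycoprotein, rose from 3.89 to 9.55 CPM (1.76 ± 0.31), Ephb2, an ephrin receptor, from 2.65 to 5.40 CPM (1.55 ± 0.38) and Hsd3b3, a steroid dehydrogenase, from 77.4 to 222 CPM (1.32 ± 0.17). Fam25c (2.27 ± 0.34), Tmem28 (2.09 ± 0.24), the antisense RNA Dio3os (1.83 ± 0.17) and Serpina3c (1.35 ± 0.36) also rose, and the rule that named these 10 genes required that the diets did not overlap. Fam25c, Ephb2 and Serpina3c lost their calls without the 4 CD mice apart, at log2 fold changes of 2.36, 2.21 and 1.86. Among decreases outside sterol metabolism, Cyp17a1, a steroid hydroxylase and lyase, stood at 9.49, 28.1 and 59.1 CPM on CD and 2.47, 4.07 and 7.40 CPM on WD (−2.65 ± 0.43), and Gria3, a glutamate receptor subunit, fell from a median of 6.27 to 1.62 CPM (−2.28 ± 0.22).

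Csad, the enzyme that makes hypotaurine on the way to taurine, with which mouse bile acids are conjugated (chr15:102176999-102204724), stood at 76.2, 98.5 and 122 CPM on CD and 164, 233 and 416 CPM on WD (1.26 ± 0.17), with no overlap. Its log2 fold change was 1.47 without the 4 CD mice apart. Mat1a, which makes S-adenosylmethionine, fell from a median of 5905 to 2294 CPM (−0.90 ± 0.22), with a wide overlap, and stood at −0.38 without the 4 mice (limma adjusted p = 0.382). Of 37 genes of amino acid breakdown and the urea cycle, 2 rose and 6 fell, and without the 4 mice none rose and 1 fell. Without single mice the counts were 2 to 5 up and 3 to 9 down, with 3 down without CD replicate 3, WD replicate 7 or WD replicate 8. Got1, an aspartate transaminase, fell from 631 to 130 CPM (−1.80 ± 0.35) and Agxt, which detoxifies glyoxylate, from 163 to 64.5 CPM (−1.18 ± 0.19), and Agxt kept its call without the 4 mice (−0.88). In glucose metabolism 2 of 22 genes rose and 3 fell, and 3 to 6 fell when single mice were left out, the most without CD replicate 4. Irs2, an adaptor of the insulin receptor, fell from 79.6 to 27.3 CPM (−1.29 ± 0.26), Gys2, liver glycogen synthase, from 410 to 237 CPM (−0.84 ± 0.11), and Pck1, which encodes a gluconeogenic enzyme, from 3378 to 1873 CPM (−0.66 ± 0.14). Pygl, glycogen phosphorylase, rose from 287 to 384 CPM (0.42 ± 0.11). Irs2 (−0.63) and Gys2 (−0.83) kept their calls without the 4 mice, and Pck1 (−0.41) and Pygl (0.18) did not.

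Genes of fatty acid use were high in the 4 CD mice that stood apart. Pdk4, which holds pyruvate back from oxidation, stood at 346, 491, 518 and 855 CPM in those mice, at 3.45, 3.72 and 8.58 CPM in the other CD mice, and at 4.02 to 12.5 CPM in the WD mice. Its log2 fold change of −3.11 ± 1.31 did not pass the test (limma adjusted p = 0.147) and was 0.53 without the 4 mice. Cyp4a10, a fatty acid ω-hydroxylase and PPARα target, stood at 641 to 1020 CPM in those 4 mice, against 30.6 to 43.8 CPM in the other CD mice and 7.67 to 52.0 CPM on WD (−3.01 ± 0.81, limma adjusted p = 0.0336, and −0.80 without the 4). Plin2, a lipid droplet coat protein (−1.36 ± 0.38), Cpt1a, which admits fatty acids to mitochondria (−0.58 ± 0.15), Hadhb, a subunit of the trifunctional protein (−0.42 ± 0.12), Ppargc1a, a coactivator of oxidation genes (−0.98 ± 0.25), and Cyp4a32 (−1.79 ± 0.38) fell on WD, and none of these 5 passed the test without the 4 mice, at −0.37, −0.27, −0.13, −0.58 and −0.76. Of 27 genes of fatty acid oxidation and ketogenesis, 3 fell and none rose with limma-voom, 8 fell with edgeR and 11 with DESeq2, and without the 4 mice none fell and 2 rose. Leaving out single mice moved the count that fell between 0, without WD replicate 7 or 8, and 11, without CD replicate 4. Of 20 genes of Pparg and lipid droplets 1 rose, Vldlr (0.96 ± 0.26), and 1 fell, Plin2. This is near the share over all genes tested, 4.75% up and 4.17% down. Vldlr did not pass the test without the 4 mice (0.65, limma adjusted p = 0.389), DESeq2 called 2 up and 5 down, and leaving out single mice gave 0 to 6 down, the most without CD replicate 4.

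**Figure D3:**
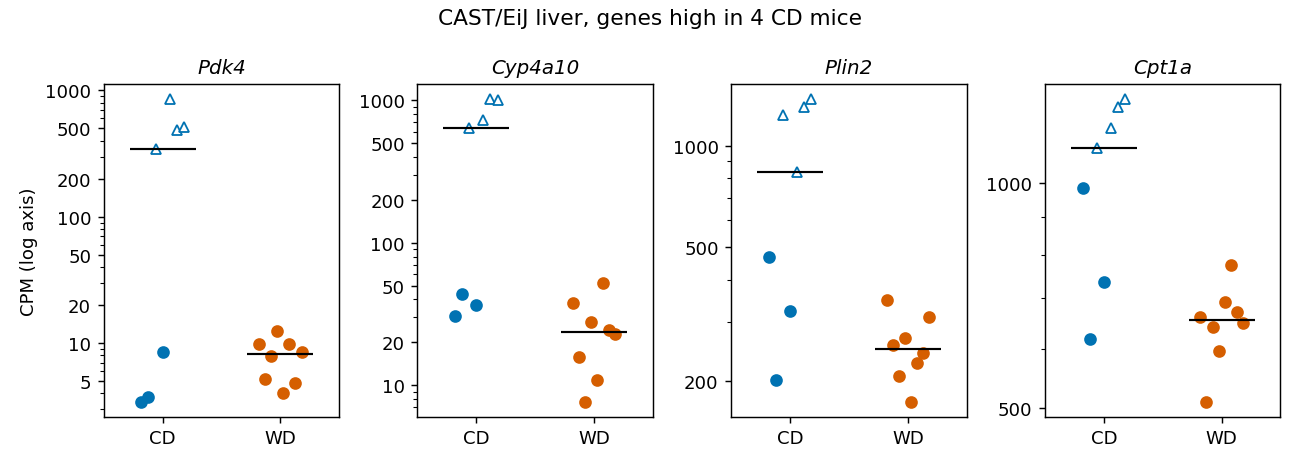
Levels in CPM on a log axis of Pdk4, Cyp4a10, Plin2 and Cpt1a for each CAST/EiJ mouse, with a horizontal bar at the median and open triangles for the 4 CD mice that stood apart. For Pdk4 the triangles lay between 346 and 855 CPM, and all other mice at or below 12.5 CPM.

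Genes of cytosolic ribosomal proteins were lower by a small amount in nearly every case. All 76 had a negative log2 fold change and 61 passed the test, with a median of −0.29. With upper-quartile factors 49 passed and with DESeq2 69, and without the 4 CD mice apart 12, with a median of −0.26. Leaving out single mice gave 38 to 68, the fewest without WD replicate 7 (38) and 8 (40). Rps15a (−0.40 ± 0.07), Rpl38 (−0.40 ± 0.09) and Rps6 (−0.39 ± 0.06) had no overlap, and Rpl39 and Rps12 (−0.40 ± 0.08 and −0.40 ± 0.07) overlapped. The margin of Rpl38 was narrow, with the highest WD mouse at 60.86 CPM and the lowest CD mouse at 60.94 CPM. For Rps15a, levels were 76.0, 82.1 and 88.3 CPM on CD and 52.9, 64.8 and 71.9 CPM on WD. Rpl11 (−0.18 ± 0.06) and Rps14 (−0.24 ± 0.08) did not pass the test. Each of these named genes fell most in cohort 4. In cohorts 1, 3 and 4, Rps15a stood at −0.14, −0.29 and −0.58, and Rpl38 at −0.04, −0.22 and −0.65. Rps6 stood at −0.13, −0.35 and −0.52, and Rpl11 at 0.03, −0.06 and −0.35. Cohort 1 held 1 CD mouse, and whether the cohorts differed was not tested. The share of unmapped reads was also higher on WD, 13.3% against 10.8%, and its part in this shift was not tested.

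Transport between the endoplasmic reticulum and the Golgi was covered by 52 COPII and COPI genes, a theme that the study itself drew from these samples, so that it is no independent evidence of direction. Of these, 17 fell and none rose, with a median log2 fold change of −0.15, and 9 fell without the 4 CD mice apart. Arf4, a GTPase that recruits the COPI coat, stood at 178, 225 and 282 CPM on CD and 132, 144 and 162 CPM on WD (−0.61 ± 0.09), with no overlap. Sec24d, a cargo adaptor of COPII, stood at 139, 157 and 177 CPM on CD and 103, 114 and 133 CPM on WD (−0.38 ± 0.06), also with no overlap. Copb1, a COPI coat subunit, fell from a median of 192 to 143 CPM (−0.43 ± 0.07), Tmed5, a cargo receptor, from 287 to 88.5 CPM (−1.10 ± 0.27) and Stx5a, a Golgi SNARE, from 70.5 to 53.0 CPM (−0.40 ± 0.08). Arf4, Sec24d and Copb1 kept their calls without the 4 mice, and Tmed5 (−0.35) and Stx5a (−0.27) did not. Of 29 ER chaperones and unfolded protein response genes 1 fell and none rose, and of 22 genes of the integrated stress response 1 rose and 1 fell.

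The mRNA of a main plasma protein fell. Alb, serum albumin (chr5:90460897-90476602), stood at 78871, 91395 and 94657 CPM on CD and 43934, 52430 and 65051 CPM on WD, with no overlap (−0.71 ± 0.08, limma adjusted p = 8.33e-05), and at −0.76 without the 4 CD mice apart. Of 20 apolipoprotein and VLDL genes 3 rose and 1 fell, and without the 4 mice none rose and 1 fell. When single mice were left out 1 to 6 fell, the most without CD replicate 4. Apoe (0.23 ± 0.04, and 0.21 without the 4 mice) and Apoc1 (0.36 ± 0.06, and 0.30) rose, Apom, a carrier on HDL, fell (−0.72 ± 0.16), and Apoa1 (−0.25 ± 0.07, limma adjusted p = 0.0506) and Apob (0.10 ± 0.08, limma adjusted p = 0.453) did not pass the test. Of 25 acute phase genes 2 fell and none rose by limma-voom (1 rose by edgeR and by DESeq2, and 4 without CD replicate 4). Il1rn, the antagonist of the interleukin 1 receptor, fell from a median of 7.15 to 2.85 CPM (−1.45 ± 0.30), and Apcs, serum amyloid P, from 28.5 to 11.9 CPM (−1.36 ± 0.30). Of 34 complement and coagulation genes 3 rose and 5 fell, C9 (0.40 ± 0.11) and C1s1 (0.27 ± 0.07) among the former and Kng1 (−0.41 ± 0.06), Mbl2 (−0.33 ± 0.07) and Cfi (−0.28 ± 0.06) among the latter. Without the 4 mice none rose and 3 fell, and leaving out single mice gave 0 to 5 up and 3 to 5 down.

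Hepatocytes around the central vein and around the portal vein express different enzymes. Of 20 pericentral genes 4 rose and none fell, and of 20 periportal genes 1 rose and 5 fell, and without the 4 CD mice apart the counts were 2 and none, and 1 and 1. Between 2 and 8 periportal genes fell when single mice were left out, with 2 without CD replicate 3 or WD replicate 7 or 8 and 8 without CD replicate 4. Lect2, a secreted pericentral protein, stood at 61.0, 74.8 and 88.3 CPM on CD and 106, 118 and 158 CPM on WD (0.75 ± 0.10), with no overlap. Glul, glutamine synthetase, rose from a mean of 573 to 807 CPM (0.51 ± 0.14) and Gulo, of ascorbate synthesis, from a median of 595 to 802 CPM (0.41 ± 0.06), and Lect2 and Gulo kept their calls without the 4 mice. Cyp2e1, a pericentral P450, stood at 0.09 ± 0.07 and did not pass the test. Among periportal genes, Asl (−0.53 ± 0.13) and Arg1 (−0.45 ± 0.10) of the urea cycle and Gls2, liver glutaminase (−0.49 ± 0.14), fell, and Hsd17b6, a steroid dehydrogenase, rose (0.71 ± 0.12).

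**Figure D4:**
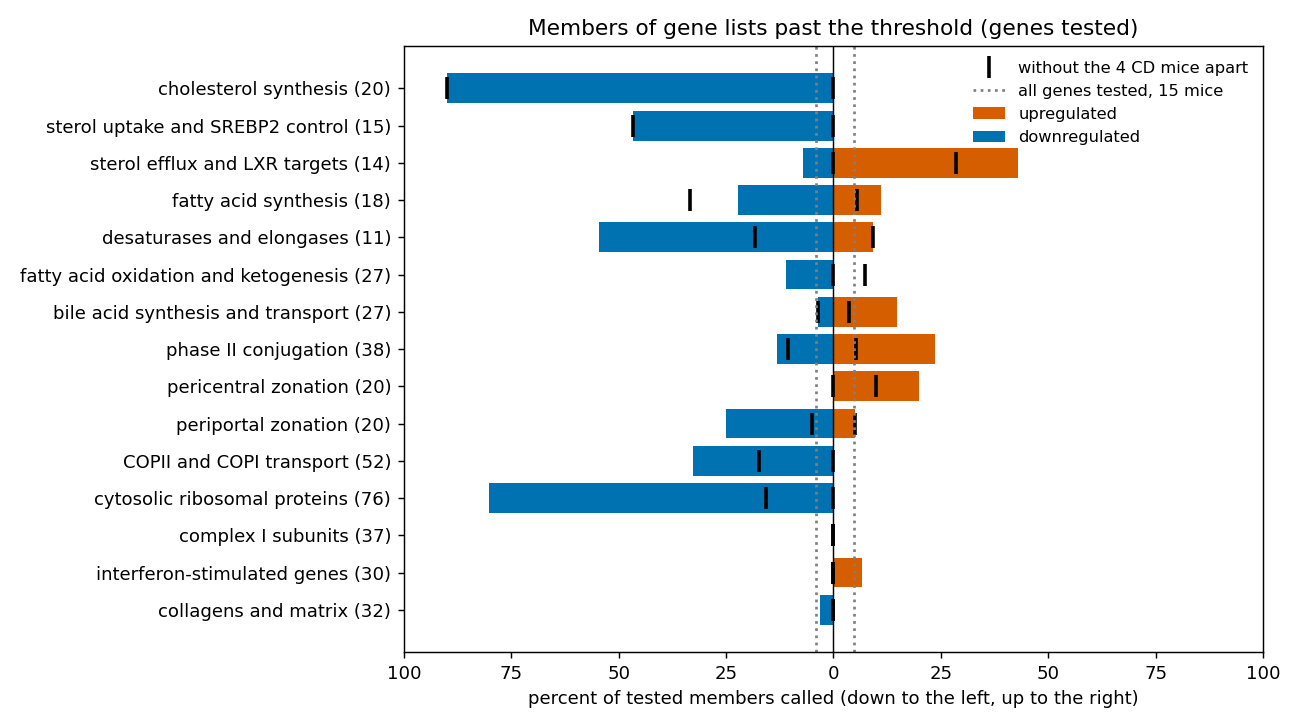
Percent of the tested members of each gene list shown that were upregulated (right) or downregulated (left) on WD in CAST/EiJ liver, with the percent over all 15378 genes tested as reference lines. Of the lists shown, the cholesterol synthesis list (18 of 20) and the ribosomal protein list (61 of 76) reach farthest to the left.

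Some markers of macrophages rose on WD. The summed level of 11 markers of monocytes and macrophages was 69.8, 76.4 and 105 CPM on CD and 80.5, 115 and 153 CPM on WD, and 3 of 10 tested markers rose, Lyz2 (0.99 ± 0.17), Tyrobp (0.56 ± 0.11) and Cd68 (0.52 ± 0.14). Of 10 Kupffer cell markers 2 rose, Cd5l (0.86 ± 0.17) and Clec4f (0.30 ± 0.09), and of 9 markers of lipid-associated macrophages 3 rose, Spp1 (0.98 ± 0.17), Lgals3 (0.90 ± 0.21) and Capg (0.82 ± 0.20). Cd5l, for example, stood at 39.6, 59.3 and 103 CPM on CD and 88.5, 107 and 137 CPM on WD. Each of these 8 genes overlapped between the diets. None passed the test without the 4 CD mice apart, where the log2 fold changes were 0.94 for Lyz2, 0.44 for Tyrobp, 0.32 for Cd68, 0.52 for Cd5l, 0.22 for Clec4f, 0.65 for Spp1, 0.87 for Lgals3 and 0.63 for Capg. The summed level of hepatocyte markers was lower on WD, as given above, with Alb alone of the 10 markers downregulated. The part of that sum in these values was not tested. Negative log2 fold changes were found in 2 of 10 tested monocyte and macrophage markers and 3 of 10 Kupffer cell markers. Of the 9 markers of lipid-associated macrophages, 2 were negative, edgeR called 5 up and 1 down, and DESeq2 6 up and 1 down. Trem2 was too low in counts to be tested. Cd4 (0.81 ± 0.18), the chemokine Ccl24 (0.50 ± 0.11) and the interferon-stimulated genes Psmb9 (0.91 ± 0.24) and Bst2 (0.39 ± 0.07) rose, and without the 4 mice they stood at 0.60, 0.53, 0.29 and 0.30 and did not pass the test. Of 9 MHC class II genes none passed the test in limma-voom, edgeR or DESeq2, and none had an unadjusted p below 0.05.

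Of 32 genes of collagens and matrix none was upregulated by limma-voom, 3 having an unadjusted p below 0.05 and a positive sign, and 1 was downregulated, Fn1, fibronectin (−0.30 ± 0.09, and −0.43 without the 4 CD mice, limma adjusted p = 0.0689). The log2 fold change was positive for 27 of the 32, with a median of 0.26. With edgeR 1 rose and none fell, and with DESeq2 1 rose and 1 fell. Of 9 myofibroblast markers none passed in limma-voom, edgeR or DESeq2, with 1 at an unadjusted p below 0.05, and 8 had a positive log2 fold change (median 0.44). The summed myofibroblast level was 37.7 to 264 CPM on WD and 31.4 to 54.2 CPM on CD, and the highest value was that of WD replicate 3. Of 10 stellate cell markers 1 rose and 1 fell. Of 7 cholangiocyte markers 2 rose, Cldn7 (0.95 ± 0.22) and Epcam (0.75 ± 0.16), and 1 fell, Tff3 (−2.65 ± 0.58), all at levels under 3 CPM. The erythroid gene Alas2 rose (0.71 ± 0.14). Without the 4 mice Tff3 kept its call (−2.87), and Cldn7 (0.89), Epcam (0.63) and Alas2 (0.66) did not pass the test. Of 37 complex I subunits of the respiratory chain, none passed the test in limma-voom or edgeR and 1 in DESeq2, with 4 at an unadjusted p below 0.05. Of 40 subunits of complexes II to V none passed in any of these tools, with 2 at an unadjusted p below 0.05, and the median log2 fold changes of both groups were 0.01 and −0.01.

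Whether the diet effect in CAST/EiJ differed from the mean effect in the other 6 strains was tested in 1 fit of all 93 mice. It differed for 2181 of 19110 genes (11.4%), with a higher effect in CAST/EiJ for 1132 and a lower effect for 1049. The fit used 1 residual variance per gene for all strains. The median residual spread was 0.287 in CAST/EiJ, 0.307 in C57BL/6J and 0.200 to 0.259 in the other 5 strains. With sample quality weights per strain, 1667 genes differed. Of the 2181, 520 were DEGs in CAST/EiJ. In 1500 the log2 fold change in CAST/EiJ and the mean of the others had opposite signs. Neither effect had to pass a test for this count. Choosing genes by their difference favours opposite signs, and the share over all genes tested was not computed. Without the 4 CD mice apart, 432 of 19683 genes differed, 298 of them the same genes. Of the 20 cholesterol synthesis genes, 5 had a lower effect in CAST/EiJ than in the mean of the others and 1, Acat2, a higher effect. Without the 4 CD mice apart the difference of Acat2 was 0.10 (from 0.55) and those of Msmo1 (−1.29, from −1.15) and Pmvk (−0.76, from −0.89) did not pass the test. Cyp51 (difference −0.97 ± 0.25) and Dhcr7 (−0.75 ± 0.19) were downregulated in each of the other 6 strains too, and WSB/EiJ, at −3.05 for Cyp51, was at the same value as CAST/EiJ. The difference of Sqle did not pass the test (−0.65 ± 0.40, limma adjusted p = 0.319).

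**Figure D5:**
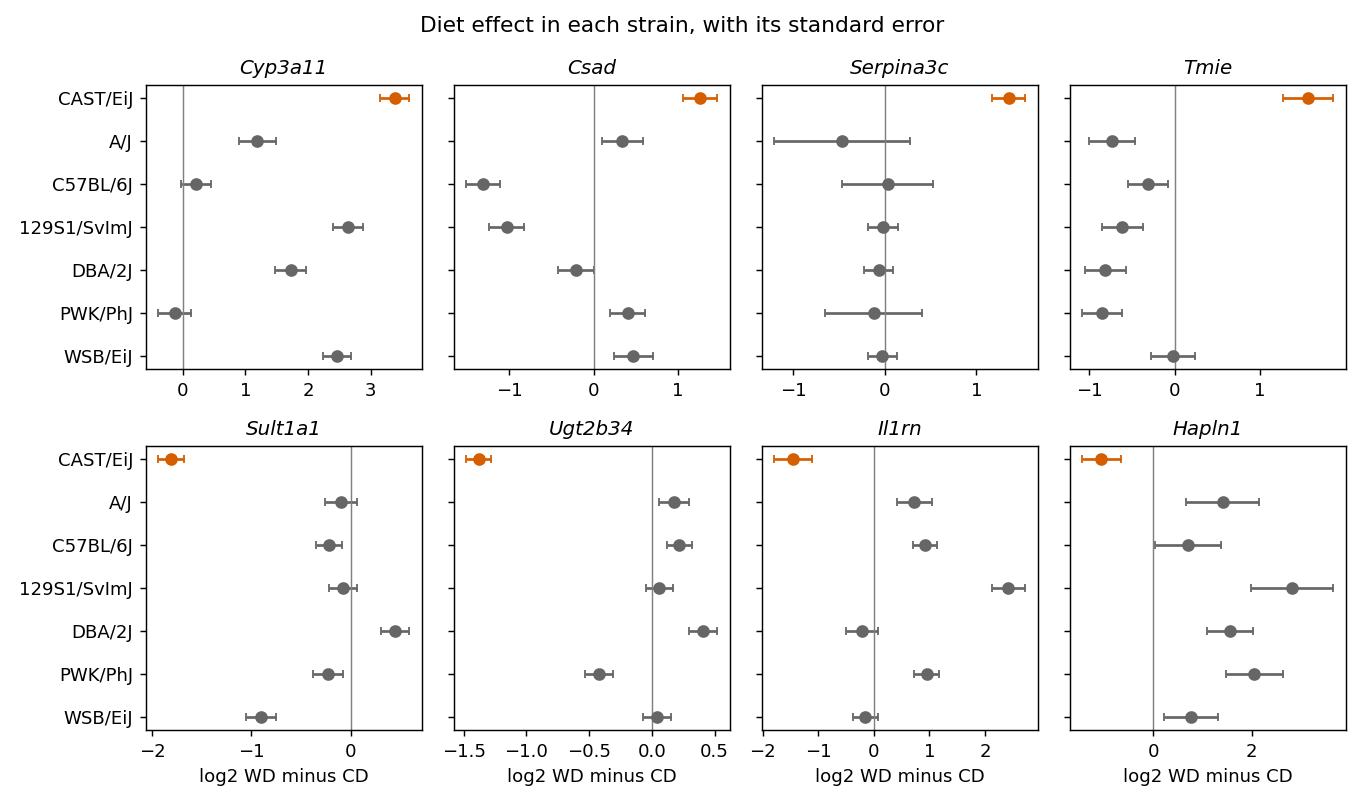
Log2 fold change, WD over CD, with standard errors, in each of the 7 strains for genes whose diet effect set CAST/EiJ apart from the mean of the other 6 strains, with CAST/EiJ marked. Ugt2b34 stood at −1.38 in CAST/EiJ and between −0.42 and 0.41 in the other strains.

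Several genes of detoxification and lipid metabolism differed with and without the 4 CD mice. Cyp3a11 rose further in CAST/EiJ (difference 2.03 ± 0.25, limma adjusted p = 1.78e-08), with log2 fold changes of 2.64 in 129S1/SvImJ, 2.46 in WSB/EiJ, 1.72 in DBA/2J, 1.19 in A/J, 0.21 in C57BL/6J and −0.13 in PWK/PhJ. On CD its median was 188 CPM, without TMM scaling, in CAST/EiJ, against 86.7 in WSB/EiJ and 2830 in C57BL/6J. Reads of every strain were mapped to the C57BL/6J genome, and the part of this in these levels was not tested. Sult1a1 (difference −1.63 ± 0.14) was downregulated in WSB/EiJ as well (−0.90) and stood between −0.23 and 0.45 in the other 5 strains. Ugt2b34 (difference −1.46 ± 0.11) was also downregulated in PWK/PhJ (−0.42), upregulated in DBA/2J (0.41), and between 0.04 and 0.22 in the other 4. Csad (difference 1.48 ± 0.22) was downregulated in C57BL/6J (−1.31) and 129S1/SvImJ (−1.03). Fads1 (difference −0.79 ± 0.13) stood at −1.62 in WSB/EiJ and −1.31 in CAST/EiJ, and was also downregulated in C57BL/6J, PWK/PhJ and 129S1/SvImJ. Fads2 (difference −1.09 ± 0.19) was downregulated in WSB/EiJ (−0.76) and stood between 0.11 and 0.31 in the other 5 strains. Whether CAST/EiJ and WSB/EiJ differed from each other was not tested.

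Il1rn fell in CAST/EiJ (−1.45) and rose in C57BL/6J (0.92), PWK/PhJ (0.95) and 129S1/SvImJ (2.42), and the difference was −2.23 ± 0.35 (limma adjusted p = 6.82e-06). Serpina3c (difference 1.46 ± 0.26) stood between −0.47 and 0.03 in the other 6 strains. Hsd17b6 (difference 1.04 ± 0.18) was downregulated in C57BL/6J (−0.55), PWK/PhJ (−0.62) and 129S1/SvImJ (−0.62). Arf4 (difference −0.57 ± 0.08) stood between −0.20 and 0.13 in the other 6 strains and passed the test in none of them, and Sec24d (difference −0.51 ± 0.11) was upregulated in C57BL/6J (0.26), DBA/2J (0.31) and PWK/PhJ (0.33). Inhba, a subunit of activins, was downregulated in each of the other 6 strains, by between −1.58 and −1.08, and stood at 0.49 in CAST/EiJ without passing the test there (difference 1.84 ± 0.28). Tmie (difference 2.11 ± 0.31) and Hapln1 (difference −2.60 ± 0.47) were further genes among the largest differences. Each of the 14 genes from Cyp3a11 to Hapln1 differed without the 4 CD mice as well, with differences of 2.43 for Cyp3a11, −1.96 for Il1rn and 1.20 for Inhba.

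Most of the largest differences did not pass the test without the 4 CD mice. Cyp4a10 (difference −3.08 ± 0.67), Cidec, a lipid droplet protein (−3.16 ± 0.53), Plin4 (−2.89 ± 0.59), Dusp8 (−2.77 ± 0.81), Pdk4 (−2.60 ± 0.83), Slc16a5 (−2.35 ± 0.72) and Ttn (−2.35 ± 0.80) differed with all mice, as did Angptl8 (2.58 ± 0.49), Ppp1r3c (2.01 ± 0.38), Hsd3b5 (2.06 ± 0.69) and Sult3a2 (2.02 ± 0.61). None of these 11 passed the test without the 4 mice. The differences were then −0.86 for Cyp4a10, −1.36 for Cidec, −1.27 for Plin4, 0.06 for Dusp8, 1.10 for Pdk4, −0.53 for Slc16a5, −0.96 for Ttn, 1.67 for Angptl8, 1.03 for Ppp1r3c, 1.21 for Hsd3b5 and 1.84 for Sult3a2. Cidec rose on WD in C57BL/6J (3.22) and PWK/PhJ (2.19), and in CAST/EiJ it stood at 6.03, 52.8 and 130 CPM on CD and 7.70, 9.22 and 18.8 CPM on WD. Sult3a2, a sulfotransferase, stood at −7.93 in PWK/PhJ and between −1.46 and −0.12 in the other 5 strains. The pancreatic elastase gene Cela1 (difference 2.58 ± 0.82) stood at 147 CPM in WD replicate 7 and 33.7 CPM in WD replicate 6, the livers with the other pancreatic genes, and its difference was 2.44 without the 4 CD mice (limma adjusted p = 0.225).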

How the data were processed

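The authors sequenced liver RNA of 93 male mice with the SMARTER kit on the BGISEQ-500 and mapped with STAR (2.7.1a, GRCm38/mm10 in the submitters' processing notes) to the C57BL/6J genome. The deposited values are unnormalized counts of reads for each of 53465 genes. The strand setting and annotation release are not given in the sources used here. The 4 summary lines for reads not assigned to genes were kept out of library sizes and tests. Symbols and positions (53360 genes) came from GENCODE annotation of GRCm38.

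Each mouse was 1 replicate, and replicate numbers are names in accession order. The software was limma 3.58.1 and edgeR 4.0.16 under R 4.3.3. The filter was filterByExpr at a minimum count of 10, and voom was fitted on TMM factors with cohort and diet in the 15 CAST/EiJ mice. The study names limma-voom on TMM counts and no formula. The moderated test was two-sided, with Benjamini–Hochberg adjustment over all genes tested. The difference from the other strains came from 1 fit of 93 mice with cohort within strain. Levels are CPM with TMM-scaled libraries, except that levels across strains are without TMM scaling. Sequencing depth ran from 40797718 to 44583685 reads assigned to genes in each mouse, and counting error widens the spread of genes with few reads.

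The gene lists and rules were chosen with earlier results of these data known, and the mice by their strain label. Lists are described by counts and medians, with no set test. The rule for named genes took the 12 largest increases and 12 largest decreases among DEGs of a mean log2 CPM from 1 upwards, no overlap between diets and a symbol other than a gene model number, up to 5 DEGs and 2 other abundant genes per list, and the 8 largest positive and 8 largest negative differences from the other strains. Further cholesterol synthesis genes, genes of single-mouse checks and Stard3 were named after their values were seen. Alternatives were edgeR's quasi-likelihood test, DESeq2 1.42.0, upper-quartile factors, other filters, no cohort, RNA integrity number (RIN), sample quality weights, a fit of all groups, and leaving out mice or cohorts. The scripts were tested on simulated data. Some genes of the lists are counted but not reported here by name.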

Additional observations from a re-analysis of the deposited data

Results flagged for a closer look

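In groups of 7 or 8 mice, 1 mouse lay farther from the rest than Dixon's 95% limit in 15 of 296 group values (5.07%). Chance alone gives about 1 in 20 for independent values, and genes of 1 mouse are not independent. On CD the lowest mouse was CD replicate 5 for Hmgcs1 (25.2 CPM, next 47.3 CPM), Stard4 (108 CPM), Srebf1 (77.0 CPM) and Cdcp1 (1.02 CPM). It was CD replicate 4 for Tm7sf2 (62.1 CPM) and CD replicate 7 for Epcam (0.878 CPM). The highest CD mouse was CD replicate 4 for Abcg5 (123 CPM), Kng1 (3640 CPM), Cfi (1022 CPM) and Fn1 (3008 CPM). It was CD replicate 5 for Nr5a2 (120 CPM) and CD replicate 2 for Ugt2b34 (264 CPM). Most of these CD values thus came from CD replicates 4 and 5. On WD the lowest mouse stood out for Cyp3a16 (0.791 CPM) and Ces2c (1.20 CPM), and the highest for Rxra (471 CPM). With these mice included, the diets overlapped for Hmgcs1, Srebf1, Nr5a2, Ces2c and Rxra and not for the others.

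The diet effect differed between CAST/EiJ and the mean of the other 6 strains for 2181 genes by the test of the difference itself. Among the named genes with a lower effect in CAST/EiJ were Cyp51 (−0.97), Dhcr7 (−0.75), Fads1 (−0.79), Fads2 (−1.09), Sult1a1 (−1.63), Ugt2b34 (−1.46), Arf4 (−0.57), Sec24d (−0.51), Il1rn (−2.23) and Hapln1 (−2.60), each of which also differed without the 4 CD mice apart. With a higher effect and the same property were Cyp3a11 (2.03), Csad (1.48), Serpina3c (1.46), Hsd17b6 (1.04), Tmie (2.11) and Inhba (1.84). Differences that passed the test with all mice and not without those mice were Cyp4a10 (−3.08), Cidec (−3.16), Plin4 (−2.89), Dusp8 (−2.77), Pdk4 (−2.60), Slc16a5 (−2.35), Ttn (−2.35), Angptl8 (2.58), Cela1 (2.58), Hsd3b5 (2.06), Sult3a2 (2.02) and Ppp1r3c (2.01), and of these Cela1 (2.44) and Sult3a2 (1.84) stayed near their size without those mice.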

How the results depend on the processing

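The count of 1371 DEGs moved with the mice and the model. It was 2341 with DESeq2 (1279 downregulated), 853 with RIN as a further term (429 up, 424 down), 2065 without a cohort term (1100 up, 965 down), and 3769 with sample quality weights (1941 up, 1828 down). In the fit of all 14 groups it was 3207 with cohort within strain (1572 up, 1635 down) and 3727 without cohort (1867 up, 1860 down). It was 707 without cohort 3 (370 up, 337 down), 77 without cohort 4 (26 up, 51 down), which leaves 3 CD mice, and 320 without the 4 CD mice apart (106 up, 214 down). Leaving out single mice gave 622 to 2723 DEGs, 312 to 1321 upregulated and 310 to 1402 downregulated. The count fell by over 1.5 times without CD replicate 3 (863), 6 (913) or 7 (907) or WD replicate 6 (814), 7 (622) or 8 (669), and rose so without CD replicate 4 (2723). Counts with edgeR (1423), upper-quartile factors (1433), at least 10 counts in every mouse (1372), any count (991) and without cohort 1 (1013) stayed within 1.5 times. The cause of these shifts was not tested beyond the fewer mice of each fit.

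The 2181 differences from the other strains became 3524 against PWK/PhJ alone and 432 without the 4 CD mice apart, and ranged from 1667 to 2771 in 5 other settings. Without those mice 9 COPII and COPI genes and 12 ribosomal protein genes were downregulated. Of 123 called genes named here, each kept its direction in every setting that could be computed, 3059 of 3564 values also kept the call, and 89 genes lost it without cohort 4 and 61 without the 4 CD mice. Genes that were not called changed sign. Without the 4 CD mice these were Acat2 (−0.43), Sult3a2 (−0.03), Ppp1r3c (−0.31), Inhba (−0.16), Cidec (0.07), Plin4 (0.28), Dusp8 (1.02, and 0.06 for its difference from other strains), Pdk4 (0.53, and 1.10 for its difference) and Slc16a5 (0.27). Without cohort 4 these were Acat2 (−0.26), Cela1 (−0.19), Sult3a2 (−0.10), Inhba (−0.09) and Ttn (1.22). Acat2 was also at −0.04 with DESeq2, −0.03 with edgeR, and from −0.08 to 0.13 when single mice were left out. No paired analysis was possible because the replicate numbers are names in accession order and pair no mice.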

Other observations

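The level of Pdk4 in the 4 CAST/EiJ CD mice that stood apart had no match in the other groups of the series. In the other CAST/EiJ CD mice Pdk4 was low, as given above. In CPM without TMM scaling, the lowest, median and highest CAST/EiJ CD mice stood at 3.45, 326 and 778. The next highest mouse of any other group was a C57BL/6J mouse on CD at 85.0, and the C57BL/6J CD group stood at 11.4, 42.1 and 85.0. Cyp4a10, in contrast, was as high in several other groups as in those CAST/EiJ mice, with a median of 711 in A/J on CD and 557 in C57BL/6J on CD, and it was low in CAST/EiJ on WD, at 8.32, 24.7 and 52.4. Cidec stood at 5.85, 49.8 and 123 in CAST/EiJ on CD and at 66.9, 152 and 219 in C57BL/6J on WD. The part of mapping to the C57BL/6J genome in these levels across strains was not tested.

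The share of unmapped reads was highest in CAST/EiJ on WD. It was 8.93% to 13.9% on CD and 11.7% to 14.8% on WD, and the highest mouse of another strain was a WSB/EiJ mouse on WD at 10.3%. The median residual spread of a gene around its group mean was 0.287 on the log2 scale in CAST/EiJ, 0.307 in C57BL/6J, and 0.200 to 0.259 in the other 5 strains. Of the gene lists not described above, the 21 circadian clock genes had none past the test with limma-voom or edgeR and 1 with DESeq2, with 2 at an unadjusted p below 0.05. Of 16 iron genes none passed with limma-voom or edgeR and 1 with DESeq2, with 5 at an unadjusted p below 0.05. The counts that follow stand beside 4.75% up and 4.17% down over all genes tested. Of 18 NRF2 targets 3 rose and 1 fell, of 26 cell cycle genes 3 rose and 1 fell, and of 18 hepatocyte transcription factors 2 fell. Of 24 genes of the growth hormone axis and male-biased genes 2 rose and 1 fell, of 11 female-biased genes 2 rose and 2 fell, and of 21 genes of methionine and one-carbon metabolism 2 rose and 1 fell. Of 9 markers of sinusoidal endothelial cells 1 fell. Of 9 markers of B and plasma cells none passed the test with limma-voom or edgeR and 1 with DESeq2, with 2 at an unadjusted p below 0.05, and of 4 neutrophil markers none passed in any of the 3 tools and none had such a p.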
